A study of Mus musculus with 3 samples.

Results

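Gene-rich barcodes are cell barcodes from flexor digitorum longus (FDL) tendon libraries in which more than 5000 genes were detected and at most 10% of unique molecular identifiers (UMIs) came from mitochondrial (mt-) genes. They lie above the upper gene limit of the study's filter and were left out of its clusters. They were chosen by these 2 measured values, the number of detected genes and the mitochondrial share. There were 1748 gene-rich barcodes among all 43908 listed, namely 732 from 6 M WT, 659 from 6 M DTR and 357 from 21 M B6. Wherever 3 values follow each other below, they are given in that order. Of barcodes with at least 1000 genes that met the mitochondrial limit, gene-rich barcodes made up 8.05% (7.502 to 8.63), 9.14% (8.48 to 9.825) and 6.925% (6.25 to 7.65). With a mitochondrial limit of 5% the shares were 8.77%, 10.4% and 12.4%, so that 21 M B6 moved from the lowest to the highest. Ranges in parentheses are exact 95% intervals and cover counting error only. Gene-rich barcodes carried 18.4%, 19.55% and 15.6% of all UMIs.

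Each library came from 16 pooled FDL tendons of male and female mice, with 1 library per group. The 6 M DTR mice were Scx-Cre+; DTR F/+, so that a diphtheria toxin receptor was expressed in cells whose Scleraxis promoter had driven Cre. Their 6 M WT littermates lacked Cre (Scx-Cre-; DTR F/+). Both were given 5 hind-paw injections of diphtheria toxin at 3 months of age. Their group name gives 6 months as the age at harvest, and the sample labels give 3 months. The 21 M B6 mice were untreated C57BL/6J mice aged 21 months. Digestion took 120 min for 6 M WT and 90 min for the others, so between 6 M DTR and its littermates genotype, digestion and library cannot be told apart. The 21 M B6 library differed from 6 M WT in age, strain, toxin, digestion and library, which cannot be told apart either. With no replicate library, no difference was tested.

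In droplet sequencing a barcode is meant to mark the RNA of a single cell, and a droplet that captured more than 1 cell gives a doublet holding the transcripts of each. Large or dividing cells also carry more RNA. In tendon, tenocytes make the collagen and proteoglycan matrix, epitenon cells line the surface, and resident macrophages express complement C1q.

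Mki67 and Top2a are used as markers of dividing cells. Mki67 encodes the proliferation antigen Ki-67, and Top2a the topoisomerase that untangles chromosomes before mitosis. Upstream regions of mitotic genes often carry CCAAT boxes, bound by NF-Y, and cell cycle homology regions, of which TTTGAA is a common form and TTCGAA another. The 250 bases upstream of each gene in RefSeq (GRCm38.p6) are shown because these genes give the division readout, 5′ to 3′ on the gene's own minus strand. Capitals mark matches on either strand, so that a CCAAT box may read ATTGG and a TTTGAA match may read TTCAAA, while TTCGAA is its own reverse complement. The Mki67 region is chr7:135716380-135716629 and the Top2a region chr11:99024190-99024439.
Mki67: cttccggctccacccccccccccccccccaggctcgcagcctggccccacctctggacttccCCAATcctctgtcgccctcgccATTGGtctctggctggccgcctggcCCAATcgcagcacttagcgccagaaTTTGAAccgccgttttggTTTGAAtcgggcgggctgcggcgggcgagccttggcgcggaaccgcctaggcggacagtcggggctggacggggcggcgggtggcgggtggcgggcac
Top2a: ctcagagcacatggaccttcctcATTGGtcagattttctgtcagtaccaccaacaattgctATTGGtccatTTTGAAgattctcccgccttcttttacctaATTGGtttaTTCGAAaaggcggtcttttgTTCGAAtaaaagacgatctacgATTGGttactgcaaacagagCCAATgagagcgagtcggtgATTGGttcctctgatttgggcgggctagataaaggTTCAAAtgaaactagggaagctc
Mki67 held 3 CCAAT, 2 TTTGAA and 0 TTCGAA matches. Top2a held 6 CCAAT, 2 TTTGAA and 2 TTCGAA matches. Of 32851 upstream regions of this length, 33.85% held a CCAAT match, 2.79% at least 3 and 0.0578% at least 6, while 15.99% held TTTGAA and 1.34% held TTCGAA. A match of letters is not a shown binding site.

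Cell type was read from 3 marker gates, each passed with at least 10 UMIs. The tenocyte gate summed Tnmd (tenomodulin), Fmod (fibromodulin), Kera (keratocan) and Cilp2, the epitenon gate Efemp1, Pi16, Scara5, Cd248, Krtdap and Ccn3, and the macrophage gate C1qa, C1qb and C1qc. Marker genes outside the gates served as a check, in CPM, the UMIs of a gene scaled to the summed UMIs of its barcodes. Tenocyte markers, led by Coch and Comp, summed to 16004, 15575 and 12618 CPM in gene-rich barcodes passing the tenocyte gate only and to 956, 698 and 1038 CPM in those passing the epitenon gate only. Macrophage markers, led by Pf4, summed to 4808, 4427 and 7047 CPM in macrophage-only and to 33.85, 15.4 and 8.05 CPM in tenocyte-only barcodes. Each list was highest in the class of its name. The 4 epitenon markers outside the gate (Dpp4, Clec3b, Ly6c1 and Sema3c) were less specific, at 1973, 2278 and 2155 CPM in epitenon-only and 1536, 1175 and 1691 CPM in tenocyte-only barcodes, so the epitenon name rests on the gate genes.

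Libraries shared 202 barcode sequences, and no sequence was gene-rich in more than 1 library, while 13 were gene-rich on 1 side. Gene-rich barcodes had a median of 33610.5, 32871 and 35698 UMIs, compared with 13008, 12328 and 12914 in the 8357, 6554 and 4798 barcodes of 1000 to 5000 genes that met the mitochondrial limit. To compare at equal depth, each barcode was also thinned to 10000 UMIs drawn at random and its gates were read again. This left out 2325, 2227 and 1471 of the barcodes of 1000 to 5000 genes and no gene-rich barcode. At 10000 UMIs the median number of genes was 3135, 3142 and 3045 in gene-rich barcodes and 2758, 2822 and 2628 in the others. Mitochondrial UMIs, which the rule limits, had medians of 2.27%, 2.19% and 3.275% and 2.83%, 2.998% and 5.09%.

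Barcodes passing 2 or more gates were more frequent among gene-rich barcodes in every library. They numbered 211 of 732, 157 of 659 and 63 of 357, or 28.8% (25.6 to 32.3), 23.8% (20.6 to 27.3) and 17.65% (13.8 to 22.01). Among barcodes of 1000 to 5000 genes the shares were 2.32%, 2.23% and 1.67%. After thinning, the gene-rich shares were 13.7% (11.3 to 16.4), 11.8% (9.47 to 14.55) and 5.602% (3.455 to 8.52), compared with 1.67%, 1.803% and 1.17%. The intervals of the gene-rich and the other barcodes did not overlap on either count. Of all barcodes passing 2 or more gates, 52.1%, 51.8% and 44.1% were gene-rich.

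**Figure D1:**
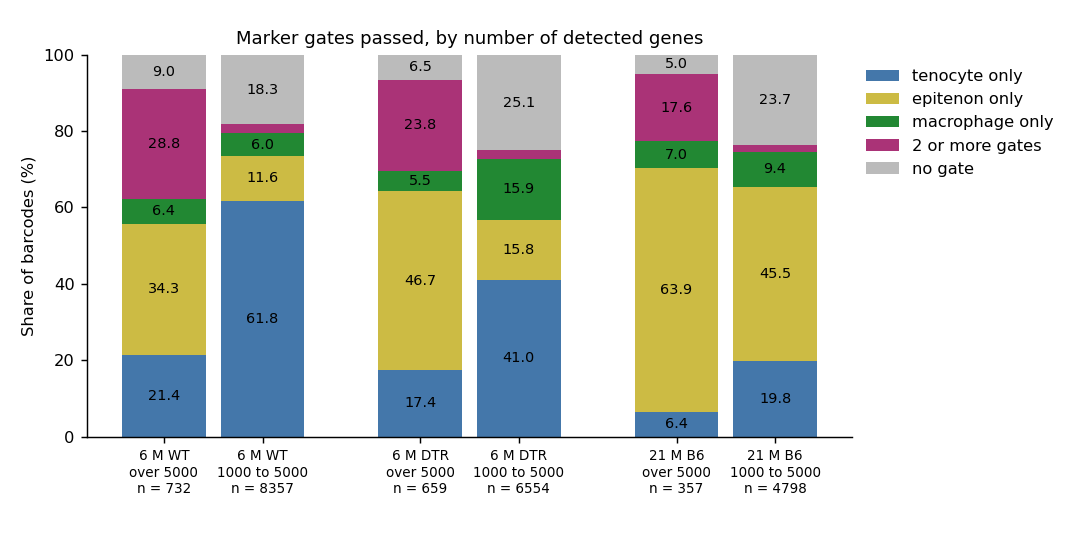
Share of barcodes (y axis, percent) passing the tenocyte gate only, the epitenon gate only, the macrophage gate only, 2 or more gates or none, for gene-rich barcodes and barcodes of 1000 to 5000 genes of each library, on counts as deposited. The segment for 2 or more gates is 28.8%, 23.8% and 17.65% of gene-rich barcodes and 2.32%, 2.23% and 1.67% of the others.

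Most gene-rich barcodes passed a single gate, and the epitenon-only class was the largest in all 3 libraries. It made up 34.3%, 46.7% and 63.9% of gene-rich barcodes (251, 308 and 228 barcodes), compared with 11.6%, 15.8% and 45.5% of the others. Tenocyte-only barcodes made up 21.45%, 17.45% and 6.44% (157, 115 and 23 barcodes), compared with 61.8%, 41.04% and 19.8%. Macrophage-only barcodes made up 6.42%, 5.46% and 7.003% (47, 36 and 25 barcodes), compared with 6.01%, 15.9% and 9.38%. Epitenon-only shares were thus higher and tenocyte-only shares lower above 5000 genes. Thinned to 10000 UMIs, the tenocyte-only shares were 27.2% (23.99 to 30.6), 20.9% (17.9 to 24.25) and 10.9% (7.88 to 14.6), compared with 63.5% (62.2 to 64.7), 43.9% (42.45 to 45.4) and 17.7% (16.4 to 19.04). The epitenon-only shares were 28.96% (25.7 to 32.4), 35.2% (31.6 to 38.99) and 54.9% (49.6 to 60.1) compared with 12.7% (11.9 to 13.6), 17.98% (16.85 to 19.2) and 48.9% (47.2 to 50.6), which overlapped in 21 M B6. No gate was passed by 9.02%, 6.525% and 5.04% as deposited, compared with 18.3%, 25.05% and 23.7%, but by 22.7% (19.7 to 25.9), 27.01% (23.65 to 30.6) and 20.7% (16.6 to 25.3) when thinned, compared with 15.1% (14.2 to 16.03), 18.4% (17.3 to 19.6) and 21.97% (20.6 to 23.4). The direction of the no-gate share thus turned with depth in the 6 M libraries, and in 21 M B6 the thinned intervals overlapped. Seen from the gates, 20.6%, 22.97% and 9.46% of epitenon-only barcodes were gene-rich, compared with 2.95%, 4.1% and 2.37% of tenocyte-only barcodes. At 10000 UMIs these were 21.65%, 22.97% and 10.8% and 4.94%, 6.77% and 6.21%. Epitenon-only barcodes of 1000 to 5000 genes were also deeper than tenocyte-only ones, with medians of 16216.5, 16632 and 15070.5 and 13009, 12650 and 11250 UMIs.

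The share passing 2 or more gates was 9.104%, 6.79% and 6.54% from 4000 to 5000 genes, 21.7%, 17.8% and 11.55% above 5000 and up to 6000 genes, and 42.5%, 40.15% and 27.03% above 6000 and up to 7000 genes. Above 7000 genes it was 63.04%, 38.6% and 43.75% of 46, 44 and 32 barcodes. On thinned counts the values above 7000 genes were 26.1% and 13.6% in the 6 M libraries and 0 of 32 in 21 M B6, with an exact upper limit of 10.9%. In the 100 gene counts just inside the threshold 17 of 93, 12 of 75 and 4 of 40 barcodes passed 2 or more gates, and in those just outside it 8 of 93, 11 of 82 and 5 of 50.

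**Figure D2:**
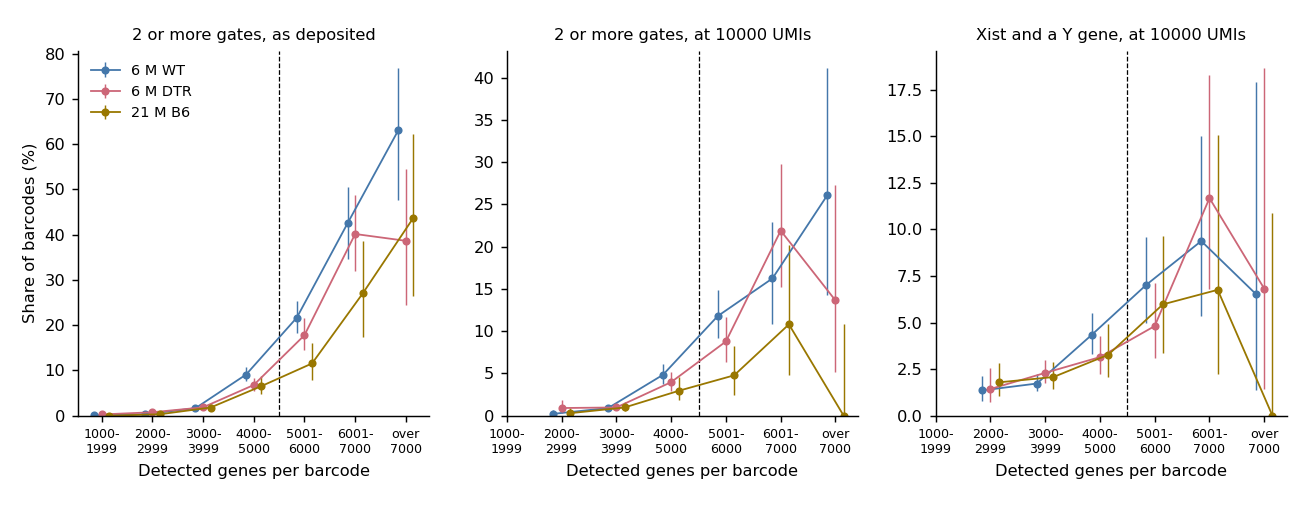
Share of barcodes (y axis, percent) by number of detected genes (x axis) passing 2 or more gates as deposited (left), passing 2 or more gates at 10000 UMIs (middle), or holding both Xist and a Y gene at 10000 UMIs (right). Points are libraries, bars are exact 95% binomial intervals, bins of fewer than 20 barcodes are not drawn and the dashed line marks 5000 genes. As deposited, every bin above the line lies higher than every bin below it.

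Tenocyte and epitenon genes were the most frequent pair, in 159, 118 and 49 gene-rich barcodes. Fmod, a collagen-binding proteoglycan, supplied 85.5%, 86.4% and 89.1% of their tenocyte gate UMIs. Ccn3, a matricellular protein, supplied 51.65%, 55.7% and 44.4% of their epitenon gate UMIs and was present in 98.7%, 97.5% and 100% of them. Pi16, a marker of adventitial fibroblasts, was present in 30.2%, 27.97% and 46.9%. Scara5 was present in 88.05%, 92.37% and 87.76%, Cd248 in 87.42%, 89.83% and 95.92% and Cilp2 in 79.87%, 72.88% and 61.22%. Fmod and Ccn3 thus gave the most UMIs of their gates, next to other gate genes in most barcodes. The same genes led in the other pairs. Fmod supplied 79.8%, 81.5% and 92.45% of tenocyte gate UMIs in the tenocyte and macrophage pair. Ccn3 supplied 49.4%, 52.1% and 62.8% of epitenon gate UMIs in the epitenon and macrophage pair. The medians were 82, 52.5 and 57 tenocyte and 40, 37.5 and 42 epitenon UMIs. Tenocyte markers outside the gate summed to 6396, 5335 and 4240 CPM, between the tenocyte-only and epitenon-only values. In tenocyte-only barcodes the epitenon gate had medians of 1, 1 and 4 UMIs, and 104, 77 and 21 of them held 1 to 9, so no gap separated these classes.

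Tenocyte and macrophage genes met in 38, 20 and 3 gene-rich barcodes. These held medians of 129, 132.5 and 147 C1q UMIs, next to 133, 126 and 268 in macrophage-only barcodes, and 95.5, 97.5 and 40 tenocyte UMIs. In tenocyte-only barcodes, which should lack C1q, 136, 91 and 19 had none and the highest held 6, 6 and 1. The gates set both limits, since the pair needs at least 10 C1q UMIs and tenocyte-only barcodes hold fewer. Macrophage markers outside the gate summed to 3264, 3217 and 4069 CPM and tenocyte markers outside the gate to 11060, 7460 and 7888 CPM in the same barcodes. Epitenon and macrophage genes met in 11, 17 and 10 barcodes, with 3015, 3168 and 3223 CPM of macrophage markers. All 3 gates were passed by 3, 2 and 1 barcodes.

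**Figure D3:**
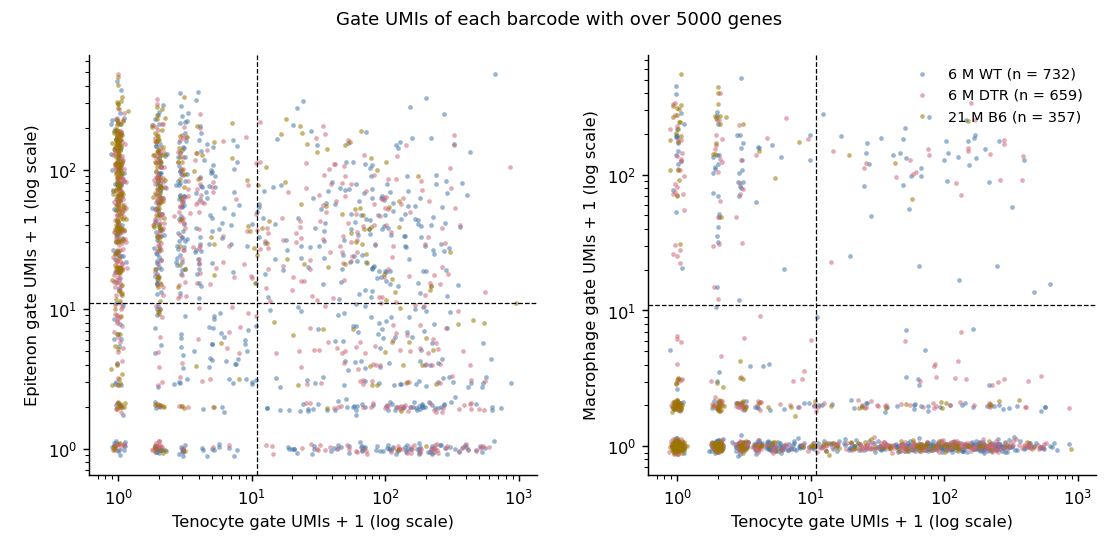
Each point is 1 gene-rich barcode, slightly jittered, with tenocyte gate UMIs plus 1 (x axis, log scale) against epitenon (left) or macrophage (right) gate UMIs plus 1 (y axis, log scale). Dashed lines mark 10 UMIs, and the upper right quadrants hold the pairs, 159, 118 and 49 barcodes on the left and 38, 20 and 3 on the right, beside those passing all 3 gates.

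Scrublet scores each barcode by its likeness to simulated doublets. Its automatic threshold called 144 of 7213 barcodes in 6 M DTR but 1 of 9089 in 6 M WT and 1 of 5155 in 21 M B6, so it did not work in the latter pair, and all barcodes were kept. Of gene-rich barcodes, 19.7%, 19.1% and 13.7% were among the highest 6% of scores of their library, compared with 4.16%, 4.53% and 4.94% of barcodes of 1000 to 5000 genes. The shares were 60.5%, 90% and 100% for the tenocyte and macrophage pair, 72.7%, 100% and 80% for the epitenon and macrophage pair, 32.1%, 33.9% and 22.45% for the tenocyte and epitenon pair, 26.1%, 19.1% and 21.7% for tenocyte-only and 3.98%, 5.52% and 6.58% for epitenon-only gene-rich barcodes. High scores were thus most frequent in the pairs that held macrophage genes. From 1000 to 5000 genes the tenocyte and macrophage pair was at 80%, 75% and 50% and the epitenon and macrophage pair at 80%, 60% and 81.8%. There the tenocyte and epitenon pair was at 21.3%, 29.9% and 45.2%. High scores in pairs were thus not particular to gene-rich barcodes.

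Because both sexes were pooled, sex-linked transcripts gave a readout that the gates did not use. Xist is transcribed in female cells, and Ddx3y, Uty, Kdm5d and Eif2s3y lie on the Y chromosome. Xist and a Y gene were both detected in 18.7%, 15.5% and 15.1% of gene-rich barcodes, compared with 3.21%, 3.296% and 3.085% of the others. At 10000 UMIs the shares were 7.51% (5.71 to 9.67), 6.37% (4.63 to 8.52) and 5.602% (3.455 to 8.52), compared with 2.255%, 2.38% and 2.22%, and the intervals did not overlap. A second cell and free RNA cannot be told apart here.

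Tenocyte-only gene-rich barcodes, which passed no other gate, held both in 31.2% (24.1 to 39.1), 19.1% (12.4 to 27.5) and 30.4% (13.2 to 52.9), compared with 3.41%, 3.09% and 2.42% of tenocyte-only barcodes of 1000 to 5000 genes. Epitenon-only gene-rich barcodes held both in 8.37% (5.25 to 12.5), 10.4% (7.22 to 14.35) and 12.3% (8.32 to 17.3), compared with 2.99%, 2.71% and 3.39%. The intervals of these classes were apart in 6 M WT and overlapped in the other libraries. At 10000 UMIs the shares were 11.6%, 7.97% and 10.3% for tenocyte-only and 5.19%, 4.74% and 4.59% for epitenon-only barcodes, with overlapping intervals in each library. Barcodes of 2 or more gates held both in 28.4%, 25.5% and 22.2%. For the tenocyte and macrophage pair these were 17 of 38, 4 of 20 and 2 of 3 barcodes, and for macrophage-only barcodes 5 of 47, 3 of 36 and 4 of 25.

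Mki67 was detected in 10.1%, 9.105% and 6.44% of gene-rich barcodes as deposited, compared with 4.25%, 7.705% and 3.585% of the others. At 10000 UMIs the shares were 6.28% (4.64 to 8.29), 5.31% (3.73 to 7.31) and 3.36% (1.75 to 5.798), compared with 3.995% (3.515 to 4.52), 7.93% (7.14 to 8.77) and 3.46% (2.86 to 4.135). At equal depth the intervals were apart only in 6 M WT, where gene-rich barcodes were higher. Top2a was detected in 4.098%, 4.097% and 4.202%, compared with 1.38%, 2.17% and 1.75%. At 10000 UMIs Top2a was in 3.415% (2.22 to 5.001), 2.73% (1.63 to 4.28) and 1.96% (0.792 to 3.998), compared with 1.01% (0.774 to 1.297), 1.85% (1.47 to 2.296) and 1.35% (0.988 to 1.81), again apart only in 6 M WT. Either gene was present in 12.2%, 10.9% and 9.52% of gene-rich barcodes as deposited.

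Mki67 followed the macrophage gate. As deposited it was present in 59.6%, 61.1% and 44% of macrophage-only gene-rich barcodes, 5.096%, 2.61% and 8.696% of tenocyte-only and 1.99%, 2.597% and 2.19% of epitenon-only ones. At 10000 UMIs the macrophage-only shares were 34.55% (22.2 to 48.6), 33.3% (17.96 to 51.8) and 25% (10.7 to 44.9), next to 34.6%, 31.6% and 24.85% from 1000 to 5000 genes, and no difference was detectable at this depth. Tenocyte-only barcodes, few of which should divide, had it in 7 of 199, 0 of 138 and 0 of 39 at 10000 UMIs, where the counts of 0 allow up to 2.64% and 9.025% by the exact limit. Top2a in macrophage-only barcodes was at 5.455% (1.14 to 15.1), 12.1% (3.403 to 28.2) and 10.7% (2.27 to 28.2) compared with 2.12% (0.973 to 3.98), 3.24% (2.11 to 4.74) and 2.92% (1.41 to 5.31), with overlapping intervals. The 2 genes thus gave unlike shares in this class, and the Mki67 share is not read as a share of dividing cells.

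**Figure D4:**
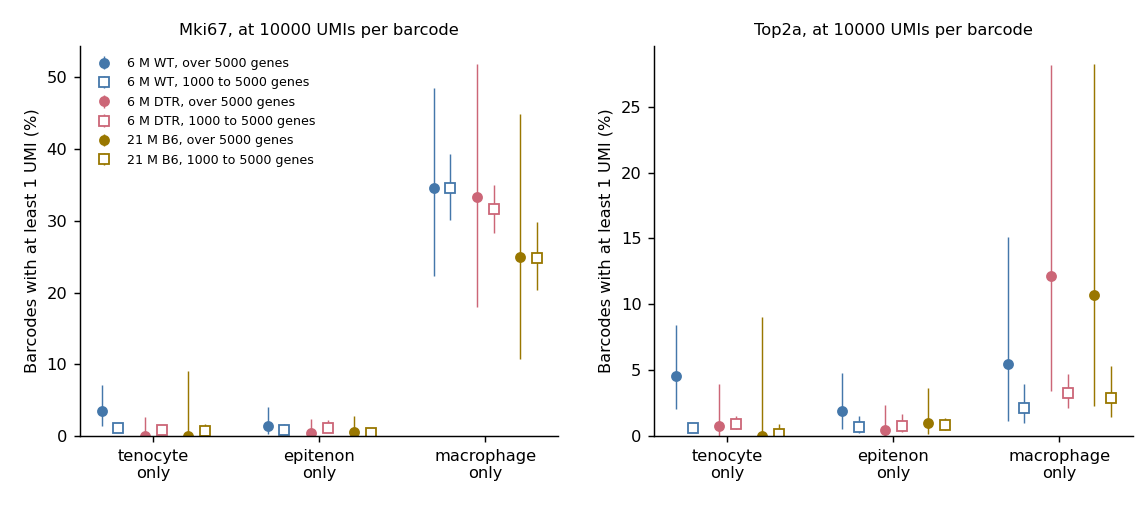
Share of barcodes with at least 1 UMI of Mki67 (left) or Top2a (right) at 10000 UMIs per barcode (y axis, percent) by gate and library, for gene-rich barcodes (filled circles) and barcodes of 1000 to 5000 genes (open squares). Bars are exact 95% binomial intervals, and in macrophage-only barcodes Mki67 sits at 34.55%, 33.3% and 25% above and 34.6%, 31.6% and 24.85% below the threshold.

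Few gene-rich barcodes held many G2/M genes, which act from late DNA replication to mitosis. With at least 10 UMIs from at least 5 of 20 such genes, 11 of 732, 12 of 659 and 4 of 357 gene-rich barcodes passed, or 1.503% (0.7525 to 2.67), 1.82% (0.944 to 3.16) and 1.12% (0.306 to 2.84), compared with 0.0957%, 0.397% and 0.292% of the others. These intervals overlapped those of the others in 21 M B6 only. With thinned counts the shares were 1.37% (0.657 to 2.498), 1.37% (0.626 to 2.577) and 0.8403% (0.174 to 2.436), compared with 0.0995% (0.0365 to 0.216), 0.439% (0.265 to 0.685) and 0.2104% (0.0846 to 0.433). At this depth the intervals were apart only in 6 M WT. The barcodes that passed as deposited held 77.6%, 72.7% and 70.6% of all G2/M UMIs of gene-rich barcodes. Of them, 2, 6 and 2 were macrophage-only, 2, 0 and 0 tenocyte-only, 2, 1 and 2 epitenon-only and 2, 5 and 0 passed no gate. In 6 M WT, 1 more passed the tenocyte and epitenon gates and 2 the tenocyte and macrophage gates. At 10000 UMIs, 2 of 55, 2 of 33 and 1 of 28 macrophage-only gene-rich barcodes passed the G2/M list, compared with 0 of 425, 4 of 772 and 2 of 342. These were fewer than held Mki67.

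In macrophage-only barcodes the 20 G2/M genes together summed to 508, 469.5 and 423 CPM, and to 125.5, 122 and 102 CPM from 1000 to 5000 genes. Without the highest barcode of each library, the gene-rich sums were 317, 322 and 149.8 CPM. Mki67 was at 184, 131 and 82.7 CPM compared with 109, 85.3 and 59.3, a ratio of 1.69 (1.49 to 1.92), 1.53 (1.297 to 1.8) and 1.39 (1.075 to 1.79). Top2a was at 40.2, 54.9 and 50.03 CPM compared with 2.82, 6.89 and 6.62. Birc5, survivin of the chromosomal passenger complex, was at 29.6, 25.5 and 40.2 CPM compared with 0.823, 2.73 and 5.08. Mki67 thus held most of the list's UMIs from 1000 to 5000 genes. Of the 20 genes, 17 passed the filter of 5 CPM, 16 of them not on the side of 1000 to 5000 genes in all 3 libraries, so their ratios had to be high and no count or median over them is given. Of all 8690 genes tested, 112 (1.29%) were past 2-fold higher in gene-rich barcodes in all 3 libraries and 13 (0.15%) past 2-fold lower. The 2, 6 and 2 barcodes above held 71.8%, 82.7% and 88.95% of the gene-rich G2/M UMIs of this class. Every gene entered the count of detected genes that chose the barcodes, so this and the following ratios are a description.

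Matrix transcripts in macrophage-only gene-rich barcodes came in part from single barcodes. Dcn (decorin) was at 501, 746 and 460.1 CPM compared with 188, 218 and 195 and present in 46 of 47, 31 of 36 and 23 of 25 barcodes, while 1 barcode held 58.1%, 29.98% and 47.04% of its UMIs. Without that barcode Dcn was at 215, 536 and 253.5 CPM. The 11 matrix collagens together summed to 333, 871 and 159 CPM, and to 171, 185 and 67.6 CPM from 1000 to 5000 genes, and without their highest barcode to 257, 523 and 117 CPM. The 12 proteoglycans summed to 927, 2925 and 796 CPM and 394, 552 and 398 CPM, and without their highest barcode to 431, 1553 and 465 CPM. The 5 highest named genes were Igfbp7, Stmn1, Dcn, Smc4 and Crip2, among which Stmn1 (stathmin) and Smc4 (a condensin subunit) act in mitosis. The lowest were Apoe, Tmem176b, Ccl24, Blnk and Ptafr. Apoe, a lipid carrier, was at 65.9, 387.5 and 296 CPM compared with 406, 1800 and 1836 and present in 14 of 47, 14 of 36 and 7 of 25 barcodes, and without its highest barcode it was at 37.3, 197.5 and 41.55 CPM. Erythroid markers summed to 19.55, 10719 and 1267 CPM in these barcodes and 4429, 3895 and 5450 CPM from 1000 to 5000 genes, and 0, 4 and 1 gene-rich barcodes passed that list. Their part in these ratios was not tested.

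Tenocyte-only gene-rich barcodes were set beside tenocyte-only barcodes of 1000 to 5000 genes. Of 8943 genes tested, 92 (1.03%) were past 2-fold higher in all 3 libraries and 9 (0.101%) past 2-fold lower. The median log2 ratio of all genes was 0.18, 0.16 and 0.29, against which list medians are read. Mitochondrial genes, which encode respiratory chain subunits and whose share the rule limits, were lower for 13 of 13 in all 3 libraries, as were 722 of all genes (8.07%), with medians of -0.34, -0.47 and -0.79. Immediate early genes had medians of -0.38, -0.42 and -0.03, and Fos was at 803.5, 1524 and 2442 CPM compared with 1250, 2285 and 3387. Proteoglycans, whose list holds the gate genes Fmod and Kera, had medians of -0.42, -0.13 and -0.13. A gate of 10 UMIs asks for a higher CPM of its genes in shallower barcodes. Together the tenocyte gate genes were at 4811, 5180 and 4485 CPM compared with 8158, 7862 and 7774. The part of the gate in the proteoglycan medians was not tested. Matrix collagens had medians of 0.27, 0.56 and -0.09. The 11 collagens together summed to 13805, 19735 and 5776 CPM, compared with 15969, 16446 and 7770 CPM from 1000 to 5000 genes, so in 6 M WT their sum was lower in gene-rich barcodes while the median of the 10 genes measured was above 0. Col3a1 was at 1261, 2839 and 773 CPM compared with 874, 1810 and 747 and Col1a1 at 4722, 6485 and 1534 CPM compared with 6311, 5887 and 2401. Secretory and ER chaperones had medians of 0.25, 0.20 and -0.12 and heat shock genes of 0.38, 0.15 and -0.07. TMM factors, a scaling between summed libraries, shift every log2 ratio of a library by the same amount, here -0.23, -0.20 and -0.37, and so leave the place of a list relative to all genes as it was. Against barcodes of 3000 to 5000 genes, matrix collagens in 6 M WT were at 0.12 and all genes at 0.13.

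Tnmd, a tendon membrane glycoprotein and itself a gate gene, was at 269, 354 and 151 CPM compared with 568, 624 and 495 in tenocyte-only barcodes. The 10 highest named genes were Rgs5, Ltbp2, AA467197, Sparcl1, Procr, Sbsn, Crabp2, Gdf15, Npy and Cd55. Rgs5, a regulator of G protein signalling that marks pericytes, was at 125, 134 and 437 CPM compared with 29.2, 34.9 and 34.5. It was present in only 25 of 157, 14 of 115 and 8 of 23 barcodes, and 1 barcode held 30.5%, 40.2% and 36.6% of its UMIs, without which it was at 87.5, 81.04 and 291 CPM. Ltbp2, a matrix protein of elastic microfibrils, was at 217, 318 and 113 CPM compared with 30.2, 91.4 and 32.8. It was present in 71 of 157, 76 of 115 and 7 of 23 barcodes, and 1 barcode held 10.6%, 8.02% and 69.6% of its UMIs, so it was spread widely in the 6 M libraries but not in 21 M B6, where it was at 35.2 CPM without that barcode. Crabp2, a retinoic acid binding protein, was at 107, 57.8 and 94.6 CPM compared with 17.3, 23.55 and 7.86, and in 21 M B6 at 47.7 CPM without its highest barcode. The lowest were Hbb-bt, Hbb-bs, Hba-a2, Hba-a1, S100a5, Lepr, Tnmd, Arrdc3, Tfpi2 and Mylk. For Hbb-bs, a haemoglobin gene, the levels were 11.6, 676 and 12.1 CPM compared with 580.2, 2316 and 588 CPM, and 1 barcode held 7.46%, 90.4% and 25% of the gene-rich UMIs, without which it was at 10.8, 65.8 and 9.37 CPM.

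Markers of other cell types were more frequent in tenocyte-only gene-rich barcodes. With at least 10 UMIs from at least 3 markers of 1 other type, erythroid genes left out, 15 of 157, 21 of 115 and 6 of 23 passed, compared with 1.82%, 3.09% and 2.74% from 1000 to 5000 genes. At 10000 UMIs the shares were 3.52%, 7.25% and 17.95%, compared with 1.385%, 2.26% and 2.38%, and the exact intervals overlapped in 6 M WT. Endothelial lists were passed by 6, 6 and 2 and mural lists by 5, 7 and 4 of them. Mural markers, of the muscle and pericyte coat of vessels, summed to 156, 206 and 509 CPM, compared with 42.15, 51.5 and 47.45 CPM. Their part in the ratio of Rgs5 and other genes was not tested. Epitenon-only gene-rich barcodes passed such a list in 8.37%, 10.4% and 10.96%, compared with 2.89%, 4.84% and 2.15%, and at 10000 UMIs in 1.89%, 3.45% and 1.53%, compared with 1.43%, 2.44% and 1.599%.

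In epitenon-only barcodes, 84 of 9239 genes (0.909%) were past 2-fold higher above 5000 genes in all 3 libraries and 84 (0.909%) past 2-fold lower. Inflammatory genes had medians of -0.97, -1.005 and -1.16 on the log2 scale, next to 0.18, 0.15 and 0.29 over all genes. These medians cover 12 of 18 genes, 9 of which had at least 5 CPM on both sides in all 3 libraries. All 18 together summed to 11089, 9907 and 10556 CPM, and to 21134, 20506 and 19459 CPM from 1000 to 5000 genes. Ptx3, a secreted pattern recognition protein, was at 75.45, 46.9 and 51.01 CPM compared with 504, 200.5 and 402.5. Ifi205, an interferon-induced gene, was at 49.8, 31.1 and 97.5 CPM compared with 298, 139 and 511. Both were lower in every library. Of all genes, 1579 (17.1%) were lower in all 3 libraries by any amount and 5483 (59.3%) higher. Immediate early genes were lower for 15 of 16, with medians of -0.47, -0.50 and -0.40. Ribosomal protein genes were lower for 77 of 81, with medians of -0.30, -0.30 and -0.29. Secretory and ER chaperones were higher for 15 of 16, the more common direction, with medians of 0.27, 0.21 and 0.29, close to those of all genes. Nuclear RNAs had medians of -0.72, -0.77 and -0.59 over the 6 of 8 genes measured. All 8, most of their UMIs from Malat1, summed to 30231, 33324 and 22335 CPM, compared with 30678, 35995 and 19414 CPM from 1000 to 5000 genes, so the sum was higher in gene-rich barcodes of 21 M B6.

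The 5 highest named genes of epitenon-only barcodes were Slurp1, Crabp2, Bmp6, F13a1 and Slc38a1. Slurp1, a secreted peptide of the Ly6 family, was at 747, 431 and 274 CPM compared with 210.5, 149.5 and 61.8 and present in 172 of 251, 198 of 308 and 133 of 228 barcodes. Crabp2 was at 229.9, 222 and 113 CPM compared with 62.5, 77.4 and 24.8. Bmp6, a bone morphogenetic protein, was at 103, 99.6 and 64.1 CPM compared with 31.1, 34.8 and 20.8 and present in 175 of 251, 227 of 308 and 150 of 228 barcodes. No barcode held more than 9.89% of the UMIs of any of the 5 genes, so these levels were spread over many barcodes. F13a1, the A subunit of coagulation factor XIII, was at 294, 446.5 and 320.2 CPM compared with 85.4, 160.5 and 67.7. Slc38a1, an amino acid transporter, was at 82.9, 65.6 and 65.03 CPM compared with 16.8, 23.9 and 12.9. The lowest were Hba-a1, Hba-a2, Hbb-bs, Ifi205 and Ptx3.

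**Figure D5:**
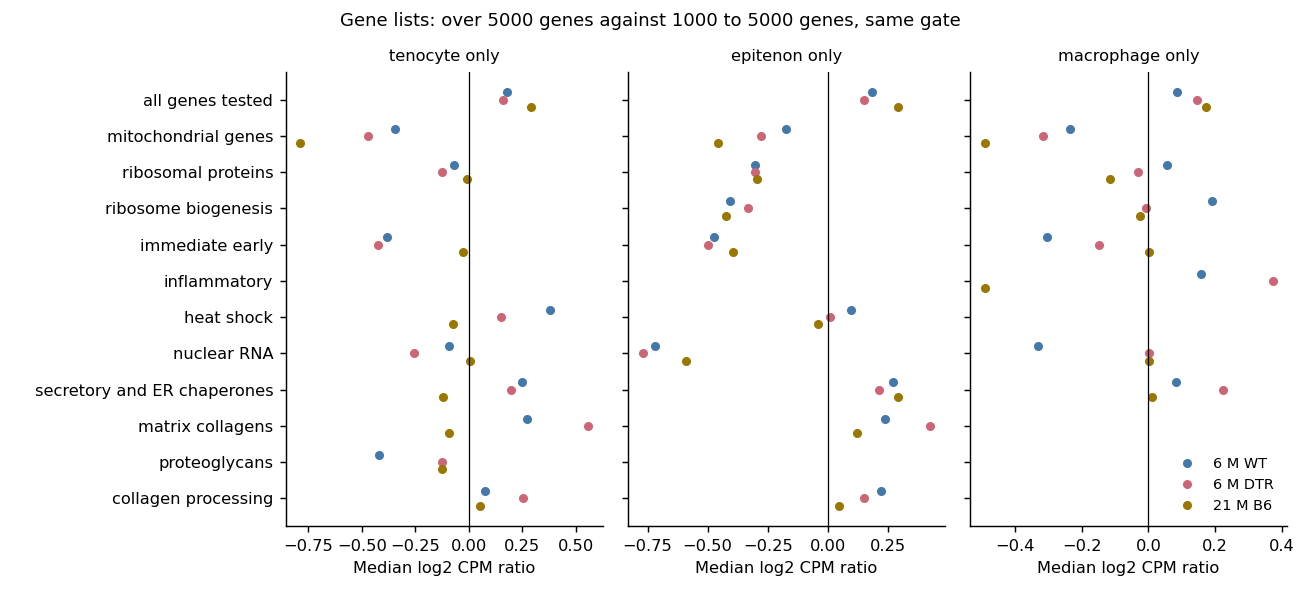
Median log2 ratio of CPM in gene-rich barcodes to CPM in barcodes of 1000 to 5000 genes (x axis, scales differ between panels) for each gene list (y axis), for barcodes passing only the tenocyte (left), epitenon (middle) or macrophage gate (right). Points are libraries. A list is drawn only where every gene measured had at least 5 CPM on both sides in all 3 libraries, and S phase and G2/M genes are drawn in no panel. In the epitenon panel, immediate early genes lie at -0.47, -0.50 and -0.40 and all genes at 0.18, 0.15 and 0.29.

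Gene-rich barcodes that passed no gate numbered 66, 43 and 18 and held vessel genes. The genes highest in them relative to gene-rich barcodes of any gate were Csf2rb, Adgrl4, Ptprb, Cdh5, Pecam1, Ctla2a, Iigp1, Flt1, Nes and Rgs5. Cdh5, the cadherin of endothelial junctions, was at 106, 61.99 and 265 CPM compared with 7.68, 8.94 and 11.1, in 21, 9 and 9 barcodes. Rgs5 was at 967, 909 and 2079 CPM compared with 137, 216 and 227, in 20, 15 and 8 barcodes. Both were thus carried by a minority of these barcodes in the 6 M libraries. Endothelial lists were passed by 12, 5 and 8, mural lists by 11, 5 and 7, Schwann lists by 2, 4 and 5, satellite cell lists by 3, 4 and 2 and dendritic cell lists by 1, 6 and 0. Endothelial markers summed to 596.5, 523 and 958 CPM, next to 94.1, 95.97 and 149.9 CPM in tenocyte-only gene-rich barcodes. In 6 M WT, no-gate barcodes of 1000 to 5000 genes were at a similar level of 594 CPM. Their mural markers summed to 1264 CPM, next to 1311 CPM in gene-rich no-gate barcodes of that library. There the vessel genes were thus not particular to gene-rich barcodes.

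Between libraries, tenocyte-only gene-rich barcodes were compared as summed counts, and both comparisons share 6 M WT. Of 10048 genes tested in 6 M DTR, 422 (4.2%) were past 2-fold higher and 400 (3.98%) past 2-fold lower. Of 10194 tested in 21 M B6, 737 (7.23%) were higher and 962 (9.44%) lower. Coch, which encodes the matrix protein cochlin, was at 7527, 753 and 1160 CPM and present in 153 of 157, 46 of 115 and 15 of 23 barcodes. The ratio of DTR to WT was 0.09999 (0.0963 to 0.104), next to 0.245 from 1000 to 5000 genes. Without its highest barcode Coch in 21 M B6 was at 665 CPM. Edil3, a secreted integrin ligand, was at 6.25, 74.8 and 18.1 CPM and present in 14 of 157, 69 of 115 and 3 of 23 barcodes. Its DTR to WT ratio was 11.96 (8.45 to 17.4), next to 40.4 (34.9 to 47), so the gene-rich ratio was the smaller for Edil3. In 21 M B6 Edil3 was at 8.45 CPM without its highest barcode. Lcn2 (lipocalin 2, which binds iron-loaded siderophores) was at 664, 335 and 6.04 CPM. Islr2, a leucine-rich repeat membrane protein, was at 8.505, 14.9 and 125 CPM.

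Among lists, inflammatory genes had median log2 ratios of -0.53 and -2.38 for 6 M DTR and 21 M B6 relative to the shared library, and -0.59 and -0.94 from 1000 to 5000 genes. A gene entered with at least 5 CPM in only 1 of the 2 libraries, so a gene high in 6 M WT alone had to have a low ratio. Of the 18 inflammatory genes, 1 in 6 M DTR and 2 in 21 M B6 were at 0 on 1 side. The others were higher for 4 and lower for 13 in 6 M DTR, and higher for 4 and lower for 12 in 21 M B6. Il6 was at 80.5, 106 and 293 CPM and present in 56 of 157, 32 of 115 and 15 of 23 barcodes. Without its highest barcode in each library Il6 was at 67.4, 61.1 and 167 CPM. All 18 together summed to 14946, 10940 and 5099 CPM, and to 13482, 10766 and 9810 CPM from 1000 to 5000 genes. Immediate early genes had medians of 0.49 and 1.16, next to 0.49 and 0.91. Heat shock genes had medians of -0.47 and 0.95, next to -0.16 and 1.14. Matrix collagens had medians of 0.53 and -0.74, next to 0.22 and -0.67. All genes tested had medians of 0.01 and -0.10. Some of the largest ratios rested on 1 barcode. Hba-a1 in 6 M DTR was at 399 CPM, and at 20.2 CPM without the barcode that held 95% of it. Lyz2 in 21 M B6 was at 149.9 CPM, and at 9.38 CPM without its highest barcode. Il1b in 6 M WT was at 54.3 CPM, and 1 barcode held 79.9% of it.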

How the data were processed

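The data are 3 droplet single-cell libraries, 1 per group, of 148149903, 123918145 and 92707026 UMIs in the order of the report. UMI counts per gene and barcode, for 32285 genes, were deposited by the authors without normalization. The matrix headers name cellranger 6.0.1 and the submitters' processing notes Cell Ranger 2.1.1, and the genome build is not given in the sources used here. The members and gene lists were chosen with earlier results of these data known.

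Counts were summed per gate and gene range and scaled to CPM. Gates were fixed in UMIs, so their limits in CPM were higher in shallow barcodes. This touches the gate genes, among them Fmod and Kera of the proteoglycan list. Genes entered with at least 5 CPM on at least 1 side of the comparison, in every library where gene-rich and other barcodes were compared. A gene counts as called past 2-fold, for gene-rich against other barcodes in all 3 libraries. Ratios have exact 95% intervals from both counts and shares exact (Clopper-Pearson) 95% binomial intervals, both for counting error only. Named genes are the gate genes, Mki67, Top2a, the sex-linked genes, list members, genes the study names, and the highest and lowest by the smallest absolute log2 ratio over the libraries among genes of the same direction in all 3 and at least 50 CPM (10 each for the tenocyte gate, 5 each for the other gates, the 10 highest for no gate), with 5 each by ratio between libraries. No test was run and no replicate exists, so depth limits counting error only.

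Doublets were kept. Scrublet (scanpy 1.11.5) scored them with an expected rate of 6%. Python 3.11.15, numpy 2.4.6, scipy 1.17.1, pandas 2.3.3, matplotlib 3.10.9 and edgeR 4.0.16 (TMM factors only) were used. On simulated counts for 9025 genes of 6 M WT tenocyte-only barcodes, 95.8% of intervals held the true ratio and 100% of 3-fold changes were called. These counts were drawn as sums without variation between barcodes, which the intervals do not cover. Alternatives changed the mitochondrial limit, gates, gene threshold, depth, doublets, scaling, filter and reference barcodes.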

Additional observations from a re-analysis of the deposited data

Results flagged for a closer look

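In tenocyte-only barcodes, inflammatory genes had a median log2 ratio of gene-rich to other barcodes of 0.043 in 6 M WT and 0.17 in 6 M DTR, and of -1.25 in 21 M B6, on the other side of 0. With TMM factors, which shift all genes of a library alike, the values were -0.18, -0.03 and -1.62, next to -0.05, -0.04 and -0.08 over all genes. The 21 M B6 value rests on 23 gene-rich barcodes. All 18 genes summed to 14946, 10940 and 5099 CPM, compared with 13482, 10766 and 9810 CPM from 1000 to 5000 genes. Of the 14 genes measured, 2 had under 5 CPM in gene-rich barcodes of at least 1 library. In macrophage-only barcodes the list was at 0.16, 0.37 and -0.49 in the same order, and all 18 genes summed to 57294, 42734 and 15069 CPM, compared with 51803, 44797 and 22251 CPM from 1000 to 5000 genes, so in 6 M DTR the sum was lower while the median was above 0. Proteoglycans in epitenon-only barcodes were at 0.037, -0.30 and 0.36 over the 9 genes measured. All 12 summed to 20629, 29990 and 24135 CPM, compared with 22858, 26342 and 20807 CPM from 1000 to 5000 genes, so in both 6 M libraries the sum went the other way from the median. These differences between libraries were not tested.

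Outside the comparisons, 3 barcodes of 21 M B6 had over 5000 genes and over 10% mitochondrial UMIs, and the other libraries had 0. They held 36915, 45962 and 35865 UMIs, with 14.2%, 21.8% and 18.8% from mitochondrial genes. The first passed the macrophage gate with 172 UMIs and held 22 Mki67 UMIs, and the others passed the epitenon gate with 61 and 15 UMIs.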

How the results depend on the processing

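Values in threes keep the library order of the report. A mitochondrial limit of 5% gave gene-rich shares of 8.77%, 10.4% and 12.4%. The share passing 2 or more gates was 21.3%, 17.45% and 11.5% with gates of 20 UMIs, 13.7%, 11.8% and 5.602% at 10000 UMIs and 47.1%, 39.8% and 32.1% above 6000 genes. Removing Scrublet calls gave 19.6% in 6 M DTR. Removing the highest 6% of Scrublet scores, an alternative chosen after seeing the data, gave 21.6%, 15.01% and 12.99%. The share passing the tenocyte gate was 40.03%, 30.65% and 14.85% at 10000 UMIs, 60.2%, 44.75% and 37.7% above 6000 genes and 44.8% in 6 M WT with gates of 20 UMIs, and without the highest scores 40.8% and 32.5% in the 6 M libraries. Mki67 or Top2a was seen in 7.92%, 5.92% and 4.76% at 10000 UMIs, in 8.197%, 6.22% and 4.76% with at least 2 UMIs, in 15.5% of 6 M WT and 6.604% of 21 M B6 above 6000 genes, and in 6.49% of 21 M B6 without the highest scores. Xist and a Y gene were seen in 7.51%, 6.37% and 5.602% at 10000 UMIs, in 10.9%, 10.6% and 9.24% with at least 2 UMIs of each, and in 12.6%, 9.76% and 10.4% without the highest scores. Of 66 shares recomputed, 23 stayed within the interval of the reported value. Of 252 list medians of tenocyte-only gene-rich against other barcodes, 35 of the 42 computed with TMM factors moved past the reported interval and 10 changed sign, but these factors shift all genes alike. Under the other settings 21 changed sign. Relative to the median of all genes under the same setting, 8 of 252 changed side, none of them with TMM factors. Of 118 list medians between libraries, 5 changed sign. No paired analysis was possible because each group is 1 library. The cause of these shifts was not tested. Depth limits each share as its interval gives, and classes of few barcodes, such as the 23 tenocyte-only ones of 21 M B6, most.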
